A study of Mus musculus with 9 samples.

Results

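The mesothelial genes described here are Msln, Upk3b, Upk1b, Wt1, Lrrn4, Muc16 and Bnc1. They were taken by symbol from a gene table of whole mouse lung, in which they are 7 of 32671 genes, and each symbol stood on 1 row. Poly(A) RNA was sequenced at day 21 from 3 groups of C57BL/6 mice of wild-type genotype, with 3 libraries in each group. The LNP group had been challenged with bleomycin and treated with an inhalable lipid nanoparticle named mCas9/gSting@DOPS in the labels, where Cas9 is a nuclease that a guide RNA directs to DNA. The bleomycin group had been challenged with bleomycin, a DNA-damaging drug that causes lung fibrosis in mice, and the control group had received saline. The LNP and bleomycin groups thus share the bleomycin challenge, and no group given particles without the guide was analysed here. The labels give no age or sex, and they leave unsaid whether the 3 samples of each group came from separate animals. The p-values therefore cover only the spread between these samples, which may be technical.

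Mesothelium is the sheet of flat cells that covers the lung surface and lines the chest wall, heart and abdominal organs. On the lung it faces the lubricating fluid of the pleural space, and in injury its cells can loosen from one another and take on features of fibroblasts. None of the 7 genes is restricted to it: uroplakins also coat the bladder lining, Muc16 is made by wet-surface epithelia, Bnc1 by basal keratinocytes and Wt1 by kidney podocytes. Msln encodes mesothelin, a surface glycoprotein that binds the large mucin encoded by Muc16. Upk1b encodes a tetraspanin that, in the bladder lining, pairs with uroplakin III proteins such as that of Upk3b. Wt1 and Bnc1 encode zinc finger transcription factors, and Lrrn4 encodes a membrane protein with leucine-rich repeats.

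In the coordinates of the deposited table, whose build no source used here names, the genes lie on 6 chromosomes. Msln (ENSMUSG00000063011) spans chr17:25967587-25973351 on the minus strand and Upk3b (ENSMUSG00000042985) spans chr5:136067350-136075341 on the plus strand. Upk1b (ENSMUSG00000049436) spans chr16:38593546-38620690 on the minus strand and Wt1 (ENSMUSG00000016458) spans chr2:104956874-105003957 on the plus strand. Lrrn4 (ENSMUSG00000043110) spans chr2:132710225-132722811, Muc16 (ENSMUSG00000109564) spans chr9:18406751-18585826 and Bnc1 (ENSMUSG00000025105) spans chr7:81616401-81642055, all on the minus strand. No other gene of the table overlaps any of the 7.

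Promoter sequence was at hand for 4 of the 7 genes, namely Upk3b, Lrrn4, Bnc1 and Muc16, from RefSeq on GRCm38.p6. Those of Upk3b and Lrrn4 are shown because these genes moved together across the libraries. Each run holds the 250 bases before the annotated start, 5′ to 3′ on the gene's own strand, at chr5:136038246-136038495 (plus strand) for Upk3b and chr2:132880863-132881112 (minus strand) for Lrrn4. Capitals mark the letters GGAATG or, on the opposite strand, CATTCC, which are known as the TEAD motif.
Upk3b: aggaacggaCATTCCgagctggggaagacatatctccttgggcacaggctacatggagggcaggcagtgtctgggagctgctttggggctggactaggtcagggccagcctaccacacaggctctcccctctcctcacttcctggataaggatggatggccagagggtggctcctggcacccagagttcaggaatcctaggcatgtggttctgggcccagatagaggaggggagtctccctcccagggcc
Lrrn4: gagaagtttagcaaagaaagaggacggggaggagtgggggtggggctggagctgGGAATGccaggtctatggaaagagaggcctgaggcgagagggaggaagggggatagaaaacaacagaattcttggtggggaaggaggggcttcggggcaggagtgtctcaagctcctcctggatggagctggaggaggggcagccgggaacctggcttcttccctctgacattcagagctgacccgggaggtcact
The motif stands 241 bases before the start of Upk3b and 196 bases before that of Lrrn4, and both promoters have close to the same base composition, with 60.8% and 59.2% G and C. It is found on either strand in 12.6% of all 32851 promoters of that length, and in neither Bnc1 nor Muc16. The AP-1 letters TGANTCA, the letters GCGNGGGCG shared by WT1 and EGR factors, and the TATA letters TATAAA occurred on neither strand in any of the 4 promoters, against 6.75%, 4.7% and 12.4% of all promoters. A match of letters is a description of these sequences and shows no binding.

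Depth was similar between groups, with 56047830 to 69404903 gene counts per library, and all 7 genes passed the filter on low counts, which kept 20794 genes for testing. Levels of 1 gene across libraries are given in CPM, gene counts scaled to a common library size by TMM, and levels of different genes are compared in the deposited FPKM, which are per length. The labelled tissue was checked by Sftpc, a surfactant gene of alveolar type 2 cells, which was at 3760 CPM or more in every library. Sting1, whose name the guide carries, was at 44.3 to 62.0 CPM in LNP, 40.5 to 53.8 CPM in bleomycin and 18.4 to 23.9 CPM in control libraries. LNP replicate 3 was unlike all the other libraries. Its summed skeletal muscle markers reached 8148 CPM, against at most 51.9 CPM elsewhere, with Acta1 at 3447 CPM and Ckm at 1593 CPM. Its summed squamous epithelial markers reached 1959 CPM, against at most 65.8 CPM elsewhere, with Krt13 at 866 CPM and Krt4 at 767 CPM. The tests of the 7 genes and of their lists are therefore also given without it.

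**Figure D1:**
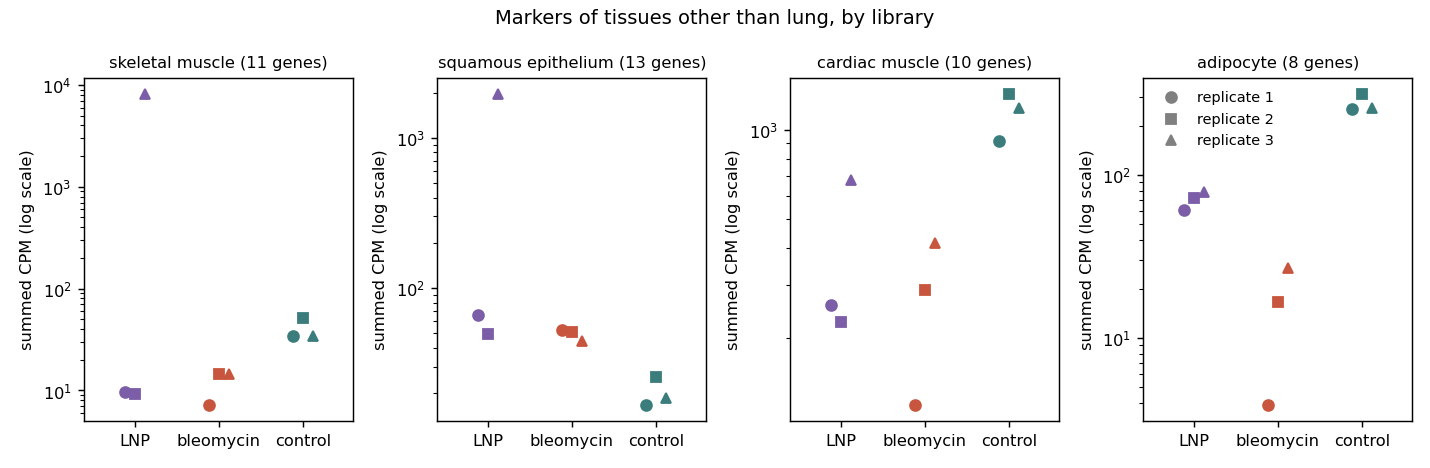
Summed CPM, on log axes, of marker lists of skeletal muscle, squamous epithelium, cardiac muscle and adipocytes in LNP, bleomycin and control libraries, with 1 point per library. LNP replicate 3 lies above the other 8 libraries for skeletal muscle and squamous epithelium, while the bleomycin libraries lie below the control libraries for cardiac muscle and adipocytes.

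Bleomycin lung was set against control lung to ask how the injury had changed these genes by day 21, and the 7 did not move as a block. Msln and Upk1b rose, Upk3b and Lrrn4 fell, and Wt1, Muc16 and Bnc1 were not called. The 4 calls came from edgeR's quasi-likelihood test at a Benjamini-Hochberg adjusted p under 0.05, which called 33.7% of all tested genes in this comparison, 15.2% as higher and 18.5% as lower. The bleomycin and control groups did not overlap for these 4 genes, as for 55.5% of all tested genes, 25.9% with bleomycin higher and 29.6% with bleomycin lower. Without LNP replicate 3, which bears on the spread shared by the fit, the same 4 genes were called, against 42.6% of all tested genes. The median log2 fold change was -0.21 over the 7 genes and -0.05 over all tested genes.

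**Figure D2:**
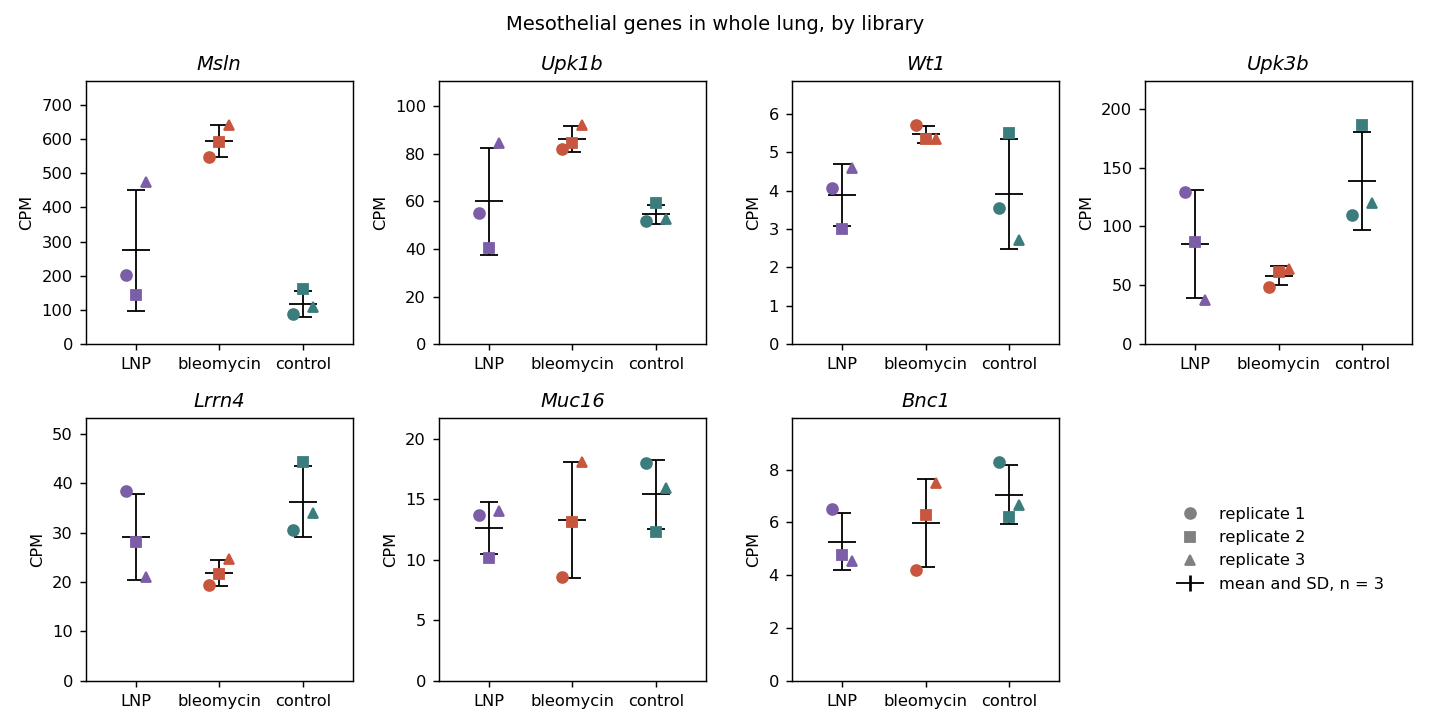
CPM of the 7 mesothelial genes in LNP, bleomycin and control libraries, with 1 point per library and the mean and SD of 3 libraries in black. Msln and Upk1b are higher and Upk3b and Lrrn4 lower in all bleomycin libraries than in any control library, and LNP replicate 3 lies apart from LNP replicates 1 and 2 for Msln, Upk1b and Upk3b.

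Msln, the mesothelin gene, changed most. It was at 547, 591 and 641 CPM in bleomycin libraries, against 87.6, 161 and 108 CPM in control libraries. The lowest bleomycin library thus lay far above the highest control library. The rise was 4.99-fold (log2 fold change 2.32 ± 0.41 SE, 95% interval 1.41 to 3.23, edgeR adjusted p = 0.00254). Msln was called in all 18 alternative analyses, where the highest adjusted p was 0.0153.

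Upk1b, the tetraspanin gene, was at 81.9, 84.3 and 92.2 CPM in bleomycin libraries, against 51.9, 59.3 and 52.7 CPM in control libraries. The groups were separate and both narrow. The rise was 1.58-fold (log2 fold change 0.66 ± 0.23 SE, 95% interval 0.15 to 1.17) and its edgeR adjusted p of 0.0497 lay at the threshold. The direction held in all 18 alternatives, but the call held in only 5. It was lost without LNP replicate 1, bleomycin replicate 1, 2 or 3 and control replicate 1, 2 or 3, where the adjusted p was 0.0627, 0.0990, 0.109, 0.122, 0.136, 0.0782 and 0.129 in that order. It was also lost under library-size scaling (0.0678), with no count filter (0.0760) and in all 3 limma settings (0.0600 to 0.124).

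Upk3b, the partner type of Upk1b in the bladder, went the other way. It was at 49.0, 61.3 and 64.1 CPM in bleomycin libraries, against 109.8, 186 and 119.6 CPM in control libraries. Every bleomycin library was below every control library, and control replicate 2 was the highest of all 9 libraries. The fall was 2.38-fold (log2 fold change -1.25 ± 0.38 SE, 95% interval -2.10 to -0.40, edgeR adjusted p = 0.0300). The call held in 12 of 18 alternatives. It was lost without bleomycin replicate 1, 2 or 3, with adjusted p-values of 0.108, 0.0796 and 0.0624 in that order, and without control replicate 2 or 3, with 0.105 and 0.0544, and in limma with no filter, with 0.0765.

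Lrrn4 fell with it. It was at 19.4, 21.7 and 24.6 CPM in bleomycin libraries, against 30.5, 44.4 and 33.9 CPM in control libraries. Here too the groups did not overlap and control replicate 2 was the highest library. The fall was 1.66-fold (log2 fold change -0.73 ± 0.23 SE, 95% interval -1.24 to -0.22, edgeR adjusted p = 0.0338). The call held in 10 of 18 alternatives and was lost without bleomycin replicate 1, 2 or 3, with adjusted p-values of 0.119, 0.0982 and 0.0512 in that order, and without control replicate 2 or 3, with 0.106 and 0.0659. It was also lost with no count filter (0.0526) and in limma with no filter (0.0586).

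The transcription factor genes and the mucin gene were not called. Wt1 was at 5.72, 5.34 and 5.35 CPM in bleomycin libraries, against 3.54, 5.51 and 2.72 CPM in control libraries. Control replicate 2 lay within the bleomycin range while the other control libraries lay below it. The log2 fold change was 0.48 with a 95% interval from -0.16 to 1.12 (edgeR adjusted p = 0.224), and 0.80 without control replicate 2 (adjusted p = 0.0476). Bnc1 was at 4.19, 6.29 and 7.50 CPM in bleomycin libraries, against 8.30, 6.21 and 6.66 CPM in control libraries. Muc16 was at 8.60, 13.2 and 18.1 CPM in bleomycin libraries, against 18.0, 12.3 and 15.9 CPM in control libraries. Both genes overlapped between the groups and spread most among the bleomycin libraries. The log2 fold changes were -0.24 (95% interval -0.82 to 0.35) for Bnc1 and -0.21 (95% interval -0.82 to 0.39) for Muc16, with edgeR adjusted p-values of 0.517 and 0.575.

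**Figure D3:**
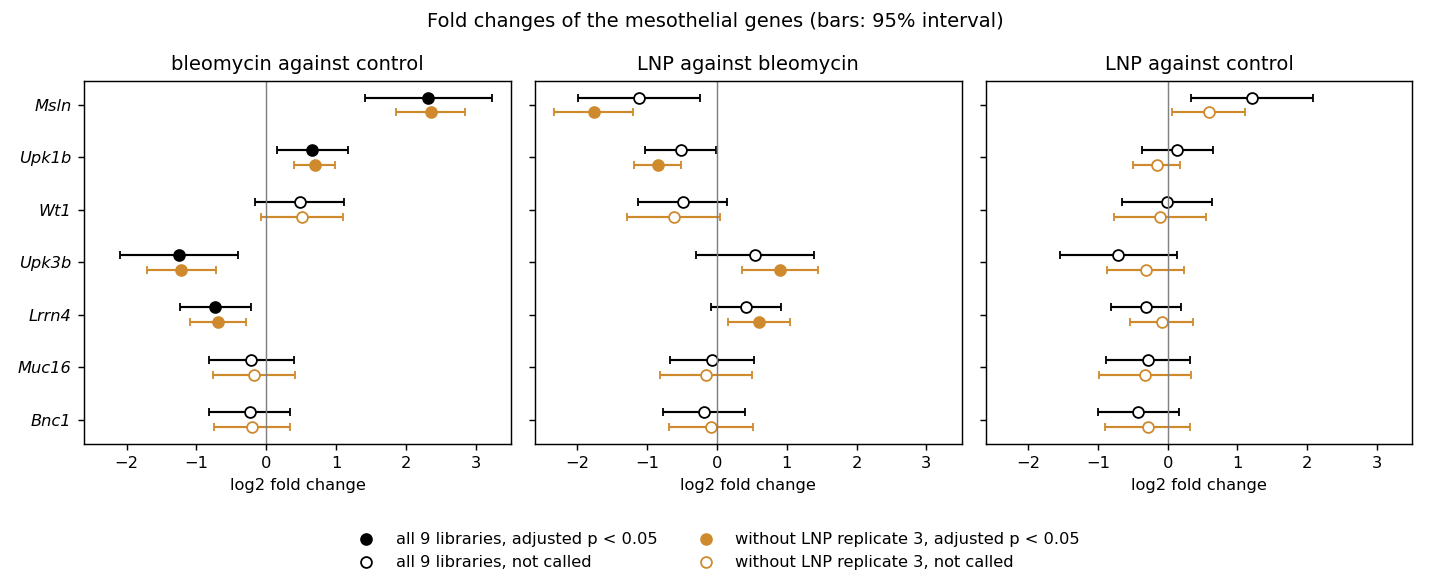
Log2 fold changes of the 7 genes in the 3 comparisons, with 95% intervals, from all 9 libraries in black and without LNP replicate 3 in orange. Filled points have an adjusted p under 0.05. In bleomycin against control the same 4 genes are filled in both fits, and in LNP against bleomycin they are filled only without LNP replicate 3.

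The order of the 7 genes per length differed between the groups. In bleomycin libraries Msln led with 170.4 ± 21.2 FPKM (SD, n = 3), ahead of Upk1b at 36.3 ± 3.86, Upk3b at 14.5 ± 2.63 and Lrrn4 at 5.19 ± 0.854 FPKM. Bnc1, Wt1 and Muc16 followed at 1.13 ± 0.362, 0.768 ± 0.0137 and 0.447 ± 0.178 FPKM, and of the neighbours in this order only Bnc1 and Wt1 overlapped. In control libraries Upk3b and Msln stood level, at 35.8 ± 9.10 and 35.4 ± 9.75 FPKM, with overlapping ranges. Upk1b at 24.0 ± 0.786, Lrrn4 at 8.93 ± 1.40, Bnc1 at 1.39 ± 0.255, Wt1 at 0.572 ± 0.183 and Muc16 at 0.540 ± 0.119 FPKM followed, where Wt1 and Muc16 also overlapped. In LNP libraries the order was Msln at 84.7 ± 53.3, Upk1b at 27.3 ± 9.89, Upk3b at 23.0 ± 12.6, Lrrn4 at 7.50 ± 2.28, Bnc1 at 1.07 ± 0.225, Wt1 at 0.593 ± 0.116 and Muc16 at 0.457 ± 0.0735 FPKM. There Upk1b overlapped with Upk3b and Wt1 with Muc16. Over LNP replicates 1 and 2 alone, Upk3b averaged 29.5 FPKM and stood above Upk1b at 21.9 FPKM, with ranges that still overlapped, and Msln averaged 54.4 FPKM. Msln made up 74.4% to 74.7% of the FPKM summed over the 7 genes in bleomycin libraries and 29.9% to 35.4% in control libraries. In LNP libraries the share was 46.5%, 47.0% and 72.4% in replicates 1, 2 and 3.

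Ratios between 2 genes of the same library do not depend on how libraries are scaled against each other. The pairs were chosen after the values were seen, and the ratios are given as a description with no test. Msln over Upk3b was 1.80, 1.91 and 14.5 in LNP libraries, 12.9, 11.1 and 11.5 in bleomycin libraries and 0.919, 0.995 and 1.04 in control libraries. Upk1b over Upk3b was 0.718, 0.781 and 3.79 in LNP libraries, 2.82, 2.33 and 2.43 in bleomycin libraries and 0.798, 0.538 and 0.744 in control libraries. LNP replicates 1 and 2 lay above the control range but far below the bleomycin range for Msln over Upk3b, and close to control for Upk1b over Upk3b. LNP replicate 3 lay above the bleomycin libraries in both ratios. Msln over Upk1b was 2.51, 2.45 and 3.82 in LNP libraries, 4.56, 4.78 and 4.74 in bleomycin libraries and 1.15, 1.85 and 1.39 in control libraries. Msln over Lrrn4 was 6.40, 6.25 and 27.3 in LNP libraries, 34.3, 33.1 and 31.6 in bleomycin libraries and 3.49, 4.40 and 3.84 in control libraries. In these 2 ratios LNP replicate 3 lay below the bleomycin libraries, and LNP replicates 1 and 2 lay between it and the control libraries. Upk3b over Lrrn4, the pair that fell together, was 3.56, 3.27 and 1.88 in LNP libraries, 2.66, 2.98 and 2.75 in bleomycin libraries and 3.79, 4.42 and 3.71 in control libraries.

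**Figure D4:**
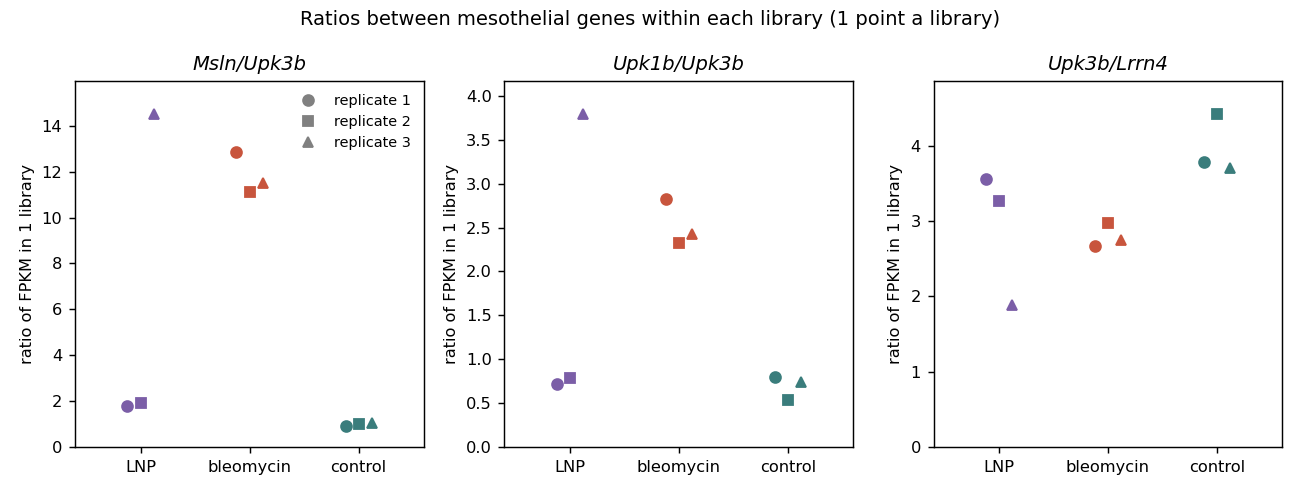
Ratios of FPKM between pairs of mesothelial genes in LNP, bleomycin and control libraries, with 1 point per library. For Msln over Upk3b and Upk1b over Upk3b the bleomycin libraries lie above all control libraries, and LNP replicate 3 lies above the bleomycin libraries, away from LNP replicates 1 and 2. The ratios of Msln to Upk1b and to Lrrn4, where it lies below the bleomycin libraries, are not plotted.

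LNP lung was next set against bleomycin lung, where both groups share the challenge and LNP lung also had the particles. With all 9 libraries none of the 7 genes was called in edgeR at an adjusted p under 0.05, where 6.16% of all tested genes were called. At an unadjusted p under 0.05 there were 2, Msln and Upk1b, and DESeq2 called 1, Msln. Msln was at 202, 145 and 475 CPM in LNP libraries, against 547, 591 and 641 CPM in bleomycin libraries. The groups did not overlap, as for 29.9% of all tested genes and, with LNP lower, 14.5%, but LNP replicate 3 came close to the bleomycin libraries. The log2 fold change was -1.11 ± 0.39 SE (95% interval -1.99 to -0.24, edgeR adjusted p = 0.117). Without LNP replicate 3 it was -1.77 ± 0.25, which is 3.41-fold lower in LNP than in bleomycin lung (adjusted p = 0.00102, from 2 LNP libraries).

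Upk1b and Upk3b were split by the same library. Upk1b was at 55.0, 40.3 and 84.7 CPM in LNP libraries, against 81.9, 84.3 and 92.2 CPM in bleomycin libraries. Upk3b was at 129, 87.2 and 37.7 CPM in LNP libraries, against 49.0, 61.3 and 64.1 CPM in bleomycin libraries. In both genes LNP replicates 1 and 2 lay on the control side of every bleomycin library, whereas replicate 3 lay within the bleomycin range for Upk1b and below it for Upk3b. The log2 fold changes were -0.52 (95% interval -1.03 to -0.01, edgeR adjusted p = 0.190) for Upk1b and 0.55 (95% interval -0.29 to 1.38, adjusted p = 0.406) for Upk3b. Without LNP replicate 3 they were -0.85 ± 0.15 (adjusted p = 0.00341) and 0.90 ± 0.24 (adjusted p = 0.0229).

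Lrrn4 was at 38.3, 28.1 and 21.1 CPM in LNP libraries, against 19.4, 21.7 and 24.6 CPM in bleomycin libraries, and again replicate 3 alone lay within the bleomycin range. The log2 fold change was 0.41 (95% interval -0.09 to 0.92, edgeR adjusted p = 0.291), and 0.61 ± 0.20 without LNP replicate 3 (adjusted p = 0.0496). That fit thus called 2 of the 7 genes as higher and 2 as lower, where 24.7% of all tested genes were called, 14% as higher and 10.7% as lower. Wt1 was at 4.07, 3.01 and 4.58 CPM in LNP libraries, against 5.72, 5.34 and 5.35 CPM in bleomycin libraries. The Wt1 groups did not overlap, as for 14.5% of all tested genes with LNP lower. The log2 fold change of -0.49 (95% interval -1.13 to 0.15) was not called (edgeR adjusted p = 0.320, and 0.162 without LNP replicate 3). Bnc1 at 6.50, 4.78 and 4.53 CPM and Muc16 at 13.7, 10.2 and 14.1 CPM in LNP libraries lay within their bleomycin ranges of 4.19 to 7.50 and 8.60 to 18.1 CPM. Their edgeR adjusted p-values were 0.713 and 0.905, and 0.857 and 0.756 without LNP replicate 3.

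LNP lung was also set against control lung, a comparison that shares the LNP libraries with the previous one. None of the 7 genes was called in edgeR, where 8.04% of all tested genes were, and every one of the 7 overlapped between the groups, where 28.8% of all tested genes did not. At an unadjusted p under 0.05 there was 1, Msln, which DESeq2 also called. Msln was at 202, 145 and 475 CPM in LNP libraries, against 87.6, 161 and 108 CPM in control libraries. The log2 fold change was 1.21 ± 0.39 SE (95% interval 0.33 to 2.09, edgeR adjusted p = 0.0938). It was 0.59 ± 0.23 (adjusted p = 0.152) without LNP replicate 3 and 1.51 (adjusted p = 0.0413) without LNP replicate 2. Without LNP replicate 3 none of the 7 was called, against 10.9% of all tested genes. Upk3b had a log2 fold change of -0.71 (adjusted p = 0.291), or -0.32 without LNP replicate 3, and Lrrn4 one of -0.31 (adjusted p = 0.446), or -0.09 without it. Upk1b at 0.14 and Wt1 at -0.01 had adjusted p-values of 0.771 and 0.986, and were at -0.16 and -0.11 without it. Bnc1 and Muc16 had log2 fold changes of -0.42 and -0.28 (adjusted p = 0.369 and 0.581), and -0.28 and -0.33 without it. A p that misses the threshold does not show that the groups are alike.

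Markers of other tissues, and of airway secretory cells of the lung, moved with these groups, and their part in the results was not tested. The counts below stand beside 18.5% of all tested genes lower and 15.2% higher in bleomycin than in control lung. All 8 adipocyte markers were lower in bleomycin than in control lung, with summed levels of 61.1 to 78.9 CPM in LNP, 3.85 to 26.9 CPM in bleomycin and 252 to 313 CPM in control libraries, and Lep was at 0 in the bleomycin libraries. Of 10 cardiac muscle markers 7 were lower in bleomycin lung and none higher, with summed levels of 225 to 677 CPM in LNP, 119 to 418 CPM in bleomycin and 920 to 1320 CPM in control libraries. Of 9 airway secretory markers 7 were lower, with summed levels of 7202 to 12634 CPM in LNP, 6051 to 6850 CPM in bleomycin and 24791 to 31694 CPM in control libraries. Squamous epithelial markers had 3 of 11 tested members higher in bleomycin lung, with summed levels of 65.8, 49.2 and 1959 CPM in LNP libraries, 44.0 to 52.2 CPM in bleomycin and 16.5 to 25.5 CPM in control libraries. In whole lung, fewer cells of a type and less RNA per cell cannot be told apart.

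Other genes of mesothelial cells divided in the same comparison as the 7 did. Their list was chosen with earlier results of these data known, so it is no independent check. Whole lung does not show which cells made their transcripts, so the division cannot be placed within mesothelium. Of a list of 19, 18 were tested and Calb2, which stayed at or below 0.360 CPM, was not. In bleomycin against control lung 4 were higher, 7 lower and 7 not called, against 15.2% higher and 18.5% lower over all tested genes, with a median log2 fold change of -0.47. Without LNP replicate 3, 5 of 19 were higher and 9 lower, against 20.5% and 22.1% of all tested genes. The higher genes were Ildr2, Anxa8, Has1 and Tbx18. Ildr2, an immunoglobulin-like receptor gene, was at 44.6, 47.5 and 50.8 CPM in bleomycin libraries, against 8.45, 7.51 and 8.88 CPM in control libraries (log2 fold change 2.53 ± 0.14 SE, edgeR adjusted p = 1.75e-05). Anxa8, a membrane-binding annexin gene, was at 166, 149 and 138 CPM in bleomycin libraries, against 49.3, 73.2 and 61.4 CPM in control libraries (log2 fold change 1.30 ± 0.28 SE, adjusted p = 0.00658). Both pairs of groups were separate, and so were those of Has1 and Tbx18, as for 25.9% of all tested genes with bleomycin higher. Has1, a hyaluronan synthase gene, was at 18.7, 9.95 and 5.64 CPM in bleomycin libraries, against 1.34, 3.56 and 2.65 CPM in control libraries. Tbx18, a T-box factor gene, was low, at 2.47, 2.20 and 1.81 CPM in bleomycin libraries, against 0.653, 0.530 and 0.686 CPM in control libraries. Its log2 fold change was 1.79 ± 0.62 SE, with an edgeR adjusted p of 0.0494 that lay at the threshold.

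The genes that fell included the IGF-binding protein gene Igfbp6 and the iron reductase gene Cybrd1, with log2 fold changes of -2.03 ± 0.24 and -1.62 ± 0.26 SE (edgeR adjusted p = 0.000425 and 0.00167). Igfbp6 was at 92.3, 102 and 106 CPM in bleomycin libraries, against 365, 487 and 378 CPM in control libraries. Nkain4 was at 14.2, 14.3 and 17.2 CPM in bleomycin libraries, against 30.7, 45.0 and 35.2 CPM in control libraries (log2 fold change -1.28 ± 0.30 SE, adjusted p = 0.0109). Cldn15, a claudin gene, was at 8.08 to 11.5 CPM in bleomycin libraries, against 18.7, 27.0 and 18.1 CPM in control libraries (log2 fold change -1.11 ± 0.28 SE, adjusted p = 0.0147). All these groups were separate, as for 29.6% of all tested genes with bleomycin lower. Rspo1, a Wnt-enhancing ligand gene, Gpm6a and the retinoic acid synthesis gene Aldh1a2 also fell, with log2 fold changes of -0.91, -0.70 and -0.80 and adjusted p-values of 0.0177, 0.0376 and 0.0495.

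Of the same list, 1 gene was higher in LNP than in bleomycin lung and 3 were lower, against 4.28% and 1.87% of all tested genes, with a median log2 fold change of 0.28 beside 0.04 over all tested genes. Anxa8 was at 51.3, 40.6 and 91.8 CPM in LNP libraries, against 166, 149 and 138 CPM in bleomycin libraries (log2 fold change -1.30, edgeR adjusted p = 0.0276). Ildr2 was at 27.9, 32.6 and 33.2 CPM in LNP libraries, against 44.6, 47.5 and 50.8 CPM in bleomycin libraries (log2 fold change -0.61, adjusted p = 0.0279), and Has1 had a log2 fold change of -1.99 (adjusted p = 0.0424). In the fit without LNP replicate 3 these log2 fold changes were -1.71, -0.65 and -1.77, all still called. For these 3 genes every LNP library, replicate 3 included, was below every bleomycin library, as for 14.5% of all tested genes. The higher gene was Dmkn, an epidermal secreted protein gene, at 29.5, 31.6 and 76.7 CPM in LNP libraries and 18.5 ± 2.31 CPM (SD, n = 3) in bleomycin libraries (log2 fold change 1.31, adjusted p = 0.0497, and 0.73 with adjusted p = 0.0111 without LNP replicate 3). With LNP replicate 3 left out, 9 of 19 were higher and 4 lower, against 14% and 10.7% of all tested genes, and the median log2 fold change was 0.66. In LNP against control lung 1 was higher and 2 were lower, against 4.95% and 3.08% of all tested genes. Ildr2 had a log2 fold change of 1.91 (edgeR adjusted p = 0.000177) and Igfbp6 one of -1.52 (adjusted p = 0.00529), and Cybrd1 was lower with an adjusted p of 0.0413.

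**Figure D5:**
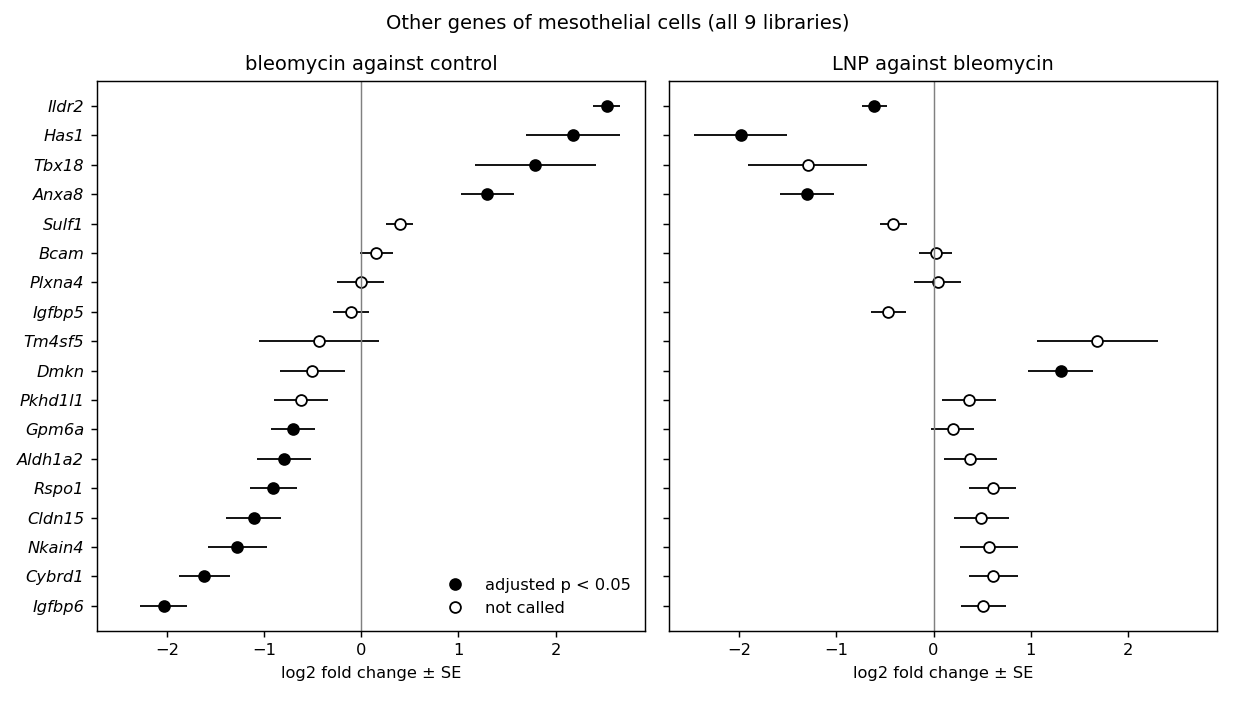
Log2 fold changes with SE of 18 other genes of mesothelial cells, in bleomycin against control lung and in LNP against bleomycin lung, from all 9 libraries. Filled points have an adjusted p under 0.05. They are 4 higher and 7 lower genes in bleomycin against control, and 1 higher and 3 lower genes in LNP against bleomycin.

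Mesothelium also makes simple-epithelial keratins and other products that lung epithelium makes in bulk. Of 10 such genes 7 were higher in bleomycin than in control lung and none lower, against 15.2% and 18.5% of all tested genes. Their median log2 fold change was 1.08. Without LNP replicate 3, 8 were higher, against 20.5% of all tested genes. Krt7 had a log2 fold change of 1.69 ± 0.17 SE (edgeR adjusted p = 0.000223) and Krt19 one of 1.21 ± 0.18 (adjusted p = 0.00114), beside Krt18 at 1.64 and Krt8 at 1.44. In LNP against bleomycin lung Krt7 and Krt19 were lower, against 1.87% of all tested genes. Their log2 fold changes were -0.89 and -0.72 (adjusted p = 0.0189 and 0.0446), or -0.92 and -0.74 without LNP replicate 3. In that fit 5 genes of the list were lower, against 10.7% of all tested genes. Against control lung, Clu, Krt18, Krt7 and Krt8 were higher in LNP lung, where 4.95% of all tested genes were higher. Pdpn joined them without LNP replicate 3, where 10.9% of all tested genes were called in either direction. The summed level was 4955 to 6540 CPM in LNP, 6892 to 7495 CPM in bleomycin and 3234 to 4430 CPM in control libraries, whereas the 7 genes summed to 319 to 642 CPM in LNP, 716 to 853 CPM in bleomycin and 309.5 to 475 CPM in control libraries. Adventitial fibroblast markers had 4 of 8 members higher in bleomycin lung (Ackr3, Mfap5, Cd248 and Ly6a) and 3 lower (Pi16, Clec3b and Serpinf1), against 15.2% and 18.5% of all tested genes.

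Of 16 relatives of the 7 genes, 14 were tested. In bleomycin against control lung 2 were higher, 3 lower and 9 not called, against 15.2% higher and 18.5% lower over all tested genes, and the median log2 fold change was 0.28. The share of relatives called was thus near that over all genes in this fit. Without LNP replicate 3 it was above that over all genes, with 5 of 14 higher and 4 lower, against 20.5% and 22.1% of all tested genes. Mslnl, the mesothelin-like gene, was at 1.03, 0.978 and 0.861 CPM in bleomycin libraries, against 0.131, 0 and 0.272 CPM in control libraries (edgeR adjusted p = 0.0310). It rose as Msln did, at a level far below it. Upk2, a uroplakin gene, was at 0, 0.109 and 0 CPM in bleomycin libraries, against 1.70, 3.09 and 2.73 CPM in control libraries (adjusted p = 0.00156). Lrrn2 was higher (log2 fold change 1.46, adjusted p = 0.00628), while Lrrn3 and the mucin gene Muc20 were lower (log2 fold changes -2.19 and -1.88, adjusted p = 0.00503 and 0.00501). Among the Lrrn genes, Lrrn4 and Lrrn3 were thus called as lower and Lrrn2 as higher. Lrrn1 and Lrrn4cl, with log2 fold changes of 2.51 and 0.84, were not called (edgeR adjusted p = 0.0642 and 0.106). No relative was called in LNP against bleomycin lung in edgeR, where the unadjusted p was under 0.05 for 6, and DESeq2 called 4. Leaving out LNP replicate 3 made 6 higher and 4 lower, against 14% and 10.7% of all tested genes. In LNP against control lung Upk3a and Muc4 were the 2 called, both higher, with log2 fold changes of 1.70 and 1.03 (edgeR adjusted p = 0.0114 and 0.0475), where 8.04% of all tested genes were called. Upk3a was low, at 3.30, 2.70 and 1.97 CPM in LNP libraries, against 0.604, 0.908 and 0.944 CPM in control libraries. Upk1a and Lrrn3 were called as lower as well when LNP replicate 3 was left out.

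Levels of the 7 genes were also compared with each other across the 9 libraries, as a description over libraries that share 3 groups and one scaling. On log2 CPM, Upk3b and Lrrn4 went together most closely (Pearson r = 0.964, and 0.988 over 8 libraries without LNP replicate 3). Msln and Upk1b followed at 0.903, Muc16 and Bnc1 at 0.838, Upk1b and Wt1 at 0.794 and Msln and Wt1 at 0.764, while Msln and Upk3b ran opposite at -0.769. The genes thus fell into Msln with Upk1b and Wt1, Upk3b with Lrrn4, and Muc16 with Bnc1.

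Outside the 7, the tested genes whose log2 CPM was most like that of each were named by Pearson r over the 9 libraries. For Msln they were Fxyd6, Nnmt and Col6a1 at 0.991, 0.991 and 0.990, and without LNP replicate 3 they were Rpl10a, Ssc5d and Fxyd6, each at 0.994. For Upk3b they were Crip2, Rtl8a and Nkain4 at 0.982, 0.982 and 0.981, and for Lrrn4 they were Gemin4, Cldn15 and Exoc3l, where Gemin4 was at 0.984 and Cldn15 at 0.980. Nkain4 and Cldn15 are also on the list of other mesothelial genes, but neither was among the first 3 without LNP replicate 3. Those were Foxn4, Asrgl1 and Hsd17b8 for Upk3b, at 0.995, 0.994 and 0.993, and Cox4i2, Asrgl1 and Fbxl6 for Lrrn4, at 0.991, 0.990 and 0.985. Upk1b was nearest to Trim41 and Galnt16, both at 0.982, and Wt1 to Eif2ak1 at 0.970. Likeness was weaker for Muc16, nearest to Etv1 at 0.905, and for Bnc1, nearest to Dipk2b at 0.893.

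Deposited transcript counts were read for the same genes. Upk3b, Lrrn4 and Bnc1 had 1 transcript each, and ENSMUST00000057767 held 99.4% of the Upk1b counts. For Msln, ENSMUST00000238120 held 61.7%, 76.9% and 66.9% of the counts in LNP libraries, 75.6%, 42.1% and 67.6% in bleomycin libraries and 61.0%, 64.0% and 57.0% in control libraries. In bleomycin replicate 2 ENSMUST00000236137 held 50.4%, against at most 16.2% in any other library, while the Msln level there lay between those of the other bleomycin libraries. For Muc16, ENSMUST00000208663 held 85.3% of the counts over all libraries, but 58.7% in bleomycin replicate 3, where ENSMUST00000207857 held 39.7%. For Wt1, ENSMUST00000143043 held 79.6% over all libraries, but 39.5% in control replicate 3, where ENSMUST00000139585 held 56.8%. Each shift was largest in 1 library, and only that of Msln was confined to it. Muc16 in control replicate 1 and Wt1 in bleomycin replicate 1 shifted the same way, by less. No source used here says how reads shared by several transcripts were divided.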

How the data were processed

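Per the labels' protocols, poly(A) RNA of whole lung was sequenced as 9 strand-marked, paired-end libraries. Per the file headers, the authors deposited gene counts and transcript counts, both whole numbers, together with FPKM per gene. Tools named in the submitters' processing notes are fastp, StringTie and edgeR, without versions. Aligner, build and strand setting: not given in the sources used here. Gene counts summed to 56047830 to 69404903 per library, and no pair of libraries within a group agreed within sampling noise.

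Groups and replicate numbers came from the labels. Deposited counts of all 9 libraries entered 1 fit, tested by the quasi-likelihood F test of edgeR 4.0.16 (R 4.3.3), with TMM scaling and filterByExpr, which left out 11877 of 32671 genes. P-values were adjusted by Benjamini-Hochberg over the 20794 tested genes and called under 0.05, and every adjusted p is from this test unless another is named. Intervals are 95% intervals of the fold change. Same-numbered libraries of different groups did not deviate together (r from -0.02 to 0.04), so no sign was seen that the numbers pair samples. This check cannot exclude shared handling. The alternatives tried were library-size scaling, relative log expression scaling, DESeq2 1.42.0, fits without the count filter, fits of 2 groups alone, a block for the replicate number, limma 3.58.1 on log2(FPKM + 1) and log2(FPKM + 0.1) at a mean FPKM of at least 0.5, log2(FPKM + 1) with no filter, and leaving out each library.

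The 7 genes and the lists (other mesothelial genes, those shared with epithelium, relatives, adventitial fibroblast, squamous, skeletal muscle, cardiac muscle, adipocyte, thymocyte and airway secretory markers) were chosen with earlier results of these data known. Named were all 7 genes, the called list members with the smallest p (up to 4 a list, all where 5 or fewer), the genes most alike, and the 2 highest markers of other tissues. Rspo1, Gpm6a, Aldh1a2, Lep, Calb2 and Sftpc, the ratio pairs and the promoter motifs were chosen after values or sequences were seen. Of the genes most alike, some are not printed. Promoters are RefSeq's, on GRCm38.p6, and deposited gene coordinates were not mixed with them. The scripts were tested on simulated counts.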

Additional observations from a re-analysis of the deposited data

How the results depend on the processing

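With 3 libraries a group, small changes of the 7 genes could not be called, and an exact permutation test of 3 against 3 libraries cannot go below p = 0.1. Of the 7, 4 were called in bleomycin against control lung, 2 with no count filter, 2 with the replicate block (Upk1b and Lrrn4 missed the threshold, with adjusted p-values of 0.0600 and 0.0621), 1 with limma on log2(FPKM + 1) without a filter, and 1 to 4 when single libraries were left out. In LNP against bleomycin lung 0 were called, 1 in DESeq2 and 0 to 4 with single libraries left out. In LNP against control lung 0 were called, 1 in DESeq2 and 0 to 1 with single libraries left out. The other alternatives kept these counts within 1.5 times, and the replicate block changed no count of the 7 genes in the LNP comparisons.

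Over all genes, 7002 calls in bleomycin against control became 4375 to 9102 with single libraries left out. The 1280 calls of LNP against bleomycin became 3184 in DESeq2, 794 with no count filter, 318 with only the 2 groups, 432 with the replicate block, 539 with limma without a filter and 102 to 5284 with single libraries left out. The 1671 calls of LNP against control became 3142 in DESeq2, 1010 with only the 2 groups and 717 to 2332 with single libraries left out. Under library-size scaling the split was 1282 higher and 253 lower in LNP against bleomycin, beside 891 and 389 in the TMM fit, and 1278 and 512 in LNP against control, beside 1030 and 641. Why these counts changed was not tested, and the cause was not tested for the reversals either.

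Log2 fold changes reversed for these genes, none of them called. Muc16 in bleomycin against control ran from -0.50 to 0.0207 with single libraries left out, reversed without bleomycin replicate 1. In LNP against bleomycin Muc16 was 0.0339 under library-size scaling and 0.0154 with limma without a filter, and ran from -0.31 to 0.22 with single libraries left out, reversed without LNP replicate 2 and bleomycin replicate 3. Bnc1 there ran from -0.39 to 0.0104, reversed without bleomycin replicate 3. In LNP against control Upk1b ran from -0.16 without LNP replicate 3 to 0.35. Wt1 there was 0.0227 with DESeq2 and with relative log expression scaling, 0.0231 with limma on log2(FPKM + 1) with or without a filter, 0.0543 under library-size scaling, 0.0345 with only the 2 groups, 0.0145 with the replicate block, 0.0654 with limma on log2(FPKM + 0.1), and -0.22 to 0.31 with single libraries left out, reversed without LNP replicate 2 and control replicate 2. Muc16 was below the FPKM filter and could not be fitted in both limma settings that used it.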

Other observations

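Thymocyte markers, a further check for tissue beside the lung, summed to 1.06 to 2.16 CPM in LNP, 0.557 to 0.698 CPM in bleomycin and 1.42 to 3.26 CPM in control libraries. All 3 tested members, Ccr9, Dntt and Themis, were lower in bleomycin than in control lung in edgeR, against 18.5% of all tested genes. Of 9 tested skeletal muscle markers none was called in bleomycin against control lung by edgeR or DESeq2 with all 9 libraries, and 0 had an unadjusted p under 0.05. Without LNP replicate 3, edgeR called Actn3 as higher and Ckm as lower, with adjusted p-values of 0.00529 and 4.60e-05. That fit called 20.5% of all tested genes as higher and 22.1% as lower. The skeletal muscle list summed to 7.14 to 14.4 CPM in bleomycin and 34.0 to 51.9 CPM in control libraries.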
